A study of Mus musculus with 9 samples.

Results

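The cell cycle and DNA replication genes described here are 42 of the 29237 genes in a table of FPKM values (fragments per kilobase of transcript, corrected for library size) from mouse heart. They were taken by gene symbol alone, and all 42 were found. They comprise 8 cyclins and kinases of the G1 phase, 3 inhibitors of those kinases, 4 pocket proteins and transcription factors, and 7 genes of the replicative helicase and sliding clamp. The other 4 genes of nucleotide supply, 4 of the S and M phase cyclins with their kinase, and 12 mitotic genes complete the set. A mean of at least 0.5 FPKM over all libraries was required for testing. It was reached by 21 members, and the other 21 are given by their values in each library.

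Messenger RNA of heart was sequenced in 9 libraries, 3 each for the groups labelled TPTN, DOX and control. All came from wild-type C57BL/6 mice aged 8 to 12 weeks. The series concerns dilated cardiomyopathy caused by doxorubicin, a chemotherapy drug that is toxic to the heart, and its design calls DOX the model group, TPTN a treated group and control the normal group. TPTN is not spelled out in the labels, which also give no dose, route or day of sampling and leave it unsaid whether doxorubicin was given to the TPTN mice. Nothing in the labels says that the replicates are separate animals, so the p-values reflect the scatter among these libraries alone, which may be technical.

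A cell commits to division in G1, when D-type cyclins bind the kinases Cdk4 and Cdk6 and together with cyclin E and Cdk2 phosphorylate the retinoblastoma pocket proteins. This frees E2F transcription factors to switch on the genes for the MCM helicase, the clamp PCNA and the enzymes that make deoxynucleotides. Cyclins A and B with Cdk1 then drive mitosis, whose genes are silent in resting cells. Adult cardiomyocytes have left the cycle, and in an adult heart most dividing cells are endothelial cells, fibroblasts and leukocytes.

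The depth of the libraries is unknown, since the FPKM values did not resolve into whole reads. Within a tolerance of 0.05, the share of low values that fell on a multiple of the most frequent low step was 10.3 to 14.6%, where evenly spread values would give 10%. Heart muscle markers summed to 7936 to 8276 FPKM in TPTN, 8385 to 8426 in DOX and 7535 to 7840 in control. In DOX against control 3 of these 8 markers were called, with Tnni3 and Myl2 higher (adjusted p = 0.0412 and 0.0339) and Ryr2 lower (0.0327). Of all tested genes 2.23% were called higher and 0.4% lower in that comparison. Sums and calls used FPKM as deposited. Mitochondrial genes and their copies made up 62.6 to 64.5% of it in DOX and 69.3 to 70.6% in control. A single library stood apart, DOX replicate 1, in which 6 atrial markers summed to 2544 FPKM. The sum was 296 and 203 in DOX replicates 2 and 3, 58.9 to 126 in TPTN and 56.3 to 153 in control. Outside DOX replicate 1 most of it was Nppa, at 288 and 195 FPKM in DOX replicates 2 and 3. Sln, Myl4, Myl7 and Bmp10 were at most 0.889 FPKM in those other libraries. Dissection and cell makeup were not tested as sources of any difference given here.

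TPTN hearts differed from DOX hearts in 1 of the 21 tested members. Cyclin D1 (Ccnd1) rose, and none fell, at an adjusted p under 0.05 (limma on log2(FPKM + 1), Benjamini-Hochberg over 12500 genes). The share of all tested genes called in that comparison was 0.792% higher and 2.46% lower. Set against control, TPTN hearts had higher Ccnd1 and Mcm3, a subunit of the MCM helicase, and no member lower, where 0.336% of all tested genes were called higher and 0.384% lower. Of 21 members, none was called between DOX and control by limma, the only tool run, although 3 were higher and 0 lower at an unadjusted p under 0.05, beside 14.6% and 3.47% of all tested genes. For DOX against control 2.23% of all tested genes were called higher and 0.4% lower. All 3 comparisons share groups, so they are not independent of each other.

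The other tested members did not pass. The median log2 change of the 21, Ccnd1 and Mcm3 included, was 0.05 in TPTN against DOX, 0.10 in TPTN against control and 0.06 in DOX against control. Over all 12500 tested genes the medians were -0.0079, 0.04 and 0.04 in the same order of comparisons. At an unadjusted p under 0.05, 6 members were higher and 1 lower in TPTN than in DOX, where 7.78% of all tested genes were higher and 12.9% lower. Likewise 7 members were higher and 0 lower in TPTN than in control, where the shares of all tested genes were 9.02% and 4.12%. In 6 of the 21 every TPTN library was above every DOX library and in 1 below, beside 10.4% and 14.1% of all tested genes. Against control the numbers were 9 above and 1 below, beside 15.2% and 6.03%. For DOX against control they were 3 above and 0 below, beside 17.7% and 5.1%. Of the 21, Ccne2, Mcm5 and Rrm2 passed the filter only through TPTN, and Cenpf only through DOX. Mcm5 is among the members counted higher in TPTN, and Cenpf among those counted higher in DOX than in control. Their part in these counts is therefore no independent support.

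**Figure D1:**
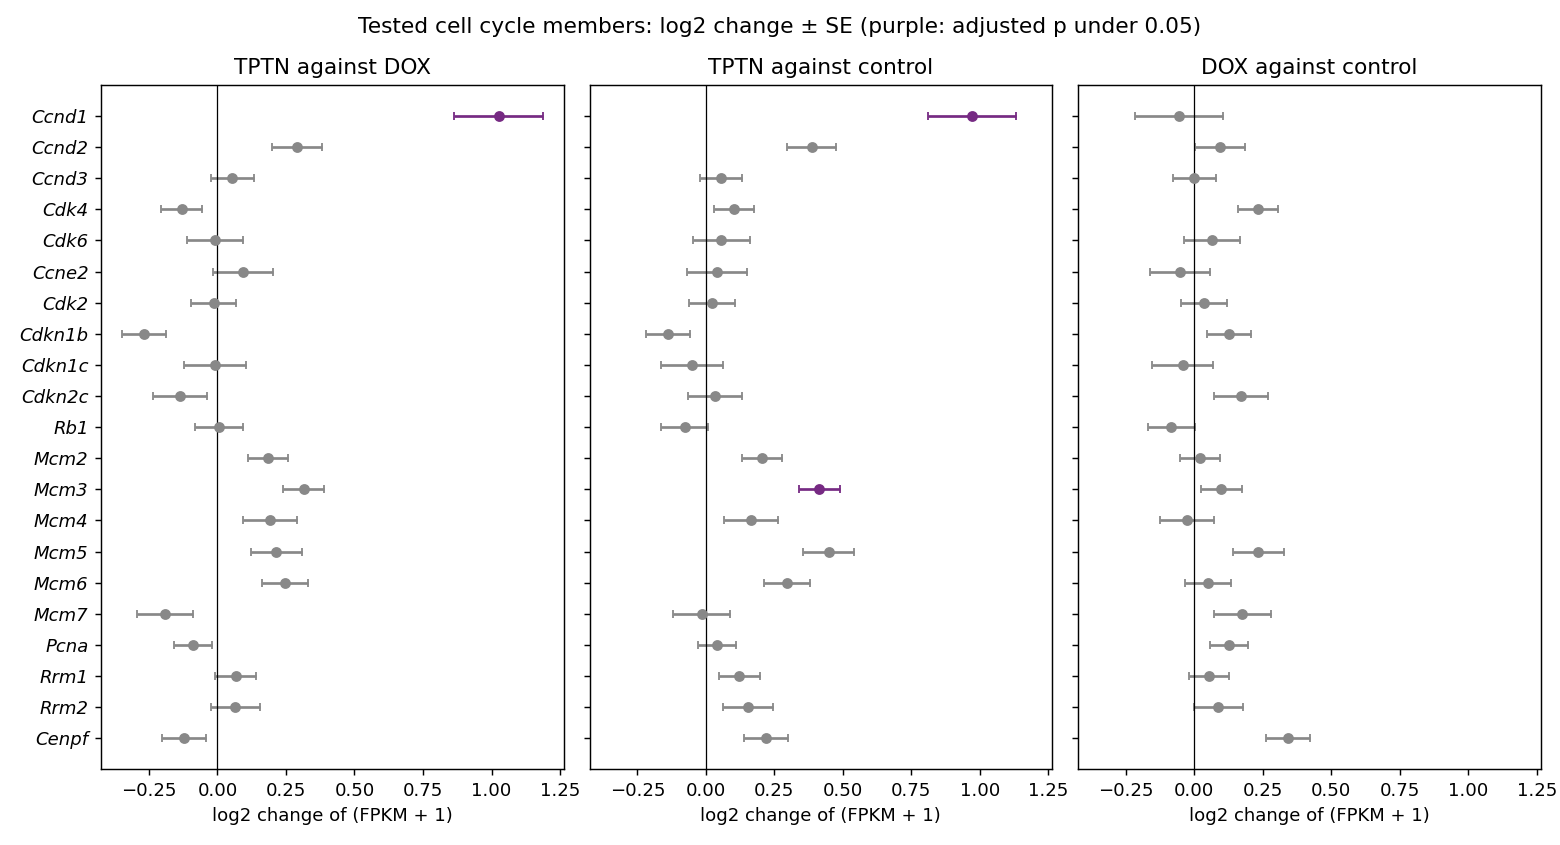
Log2 change on the log2(FPKM + 1) scale with its standard error for the 21 tested members, in TPTN against DOX, TPTN against control and DOX against control (3 libraries a group). Purple points have an adjusted p under 0.05: Ccnd1 in both TPTN comparisons and Mcm3 against control. In TPTN against control Mcm5 (0.45), which is not purple, lies farther from 0 than Mcm3 (0.41). The added 1 shrinks the changes of low genes toward 0.

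Among the G1 genes Ccnd1, which encodes the D-type cyclin that growth signals induce, was the one that changed. Its level was 14.3, 15.6 and 14.6 FPKM in the TPTN libraries, against 5.5, 8.35 and 6.78 FPKM in DOX and 7.67, 5.39 and 8.56 FPKM in control. Every TPTN library lay well above all 6 others, while DOX and control overlapped. The log2 change was 1.03 (SE 0.16, adjusted p = 0.0222) against DOX and 0.97 (SE 0.16, adjusted p = 0.0304) against control, a ratio of means of 2.16 and 2.06. Between DOX and control it was -0.05 (adjusted p = 0.902). The gene (ENSMUSG00000070348) lies on chromosome 7 from 144929931 to 144939925 on the minus strand (GRCm38) and overlaps LTO1 on the opposite strand. The libraries were made to keep strand, but whether counting used it is not given in the sources used here.

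The call on Ccnd1 depended on single libraries more than its size did. With a library left out the change against DOX stayed between 0.90 and 1.16, but the adjusted p was 0.0715, 0.0581 and 0.0644 without TPTN replicate 1, 2 or 3 and 0.0648 without DOX replicate 3. Without DOX replicate 1, the library with high atrial genes, the change was 0.90 (adjusted p = 0.0330). Against control the call was lost when any 1 TPTN library was left out (adjusted p = 0.0963, 0.119 and 0.121), and likewise when DOX replicate 3 (0.0628) or control replicate 2 (0.0508) was left out. With no filter on low values neither call held (adjusted p = 0.134 against DOX and 0.204 against control).

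The other D-type cyclins did not pass the test. Cyclin D2 (Ccnd2) was at 9.41, 9.90 and 9.47 FPKM in TPTN, against 7.19, 7.95 and 7.87 in DOX and 7.38, 6.03 and 8.04 in control. Its TPTN libraries were above all others, but the log2 change of 0.29 against DOX (SE 0.09, adjusted p = 0.106) and 0.39 against control (SE 0.09, adjusted p = 0.0904) missed the threshold. Cyclin D3 (Ccnd3) averaged 4.14 ± 0.338 FPKM in TPTN, 3.95 ± 0.305 in DOX and 3.94 ± 0.218 in control (SD, n = 3 each), and its libraries overlapped in every comparison.

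Ratios of Ccnd1 to the other D-type cyclins within a library also separated TPTN. Ccnd1 over Ccnd3 was 3.57, 3.46 and 3.77 in TPTN, against 1.52, 1.98 and 1.70 in DOX and 1.84, 1.44 and 2.18 in control. Ccnd1 stood at 1.52, 1.58 and 1.55 times Ccnd2 in TPTN, against 0.765, 1.05 and 0.861 in DOX and 1.04, 0.893 and 1.07 in control. Neither ratio overlapped between TPTN and the other groups, and a ratio within a library does not depend on how its total was scaled. Both ratios contain Ccnd1, which was itself called, so they restate its rise and are no independent support.

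The kinases that the D-type cyclins bind were not called. Cdk4 was at 7.51, 9.01 and 8.09 FPKM in TPTN, 8.60, 9.40 and 9.19 in DOX and 7.57, 7.50 and 7.60 in control. All DOX libraries were above all control libraries, with a log2 change of 0.23 (SE 0.07, unadjusted p = 0.00924, adjusted p = 0.122). Cdk6 was far lower, at 0.498 to 0.931 FPKM over the 9 libraries, with overlapping groups. Cyclin E1 (Ccne1), the lowest G1 member, had 0.464, 0.374 and 0.322 FPKM in TPTN, 0.228, 0.337 and 0.194 in DOX and 0.264, 0.463 and 0.187 in control, again overlapping. Cyclin E2 (Ccne2) and its partner Cdk2 averaged 0.516 and 1.31 FPKM over all libraries and did not pass in any comparison. Ccne2 was tested only through TPTN, with 0.494 FPKM in the other 6 libraries.

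**Figure D2:**
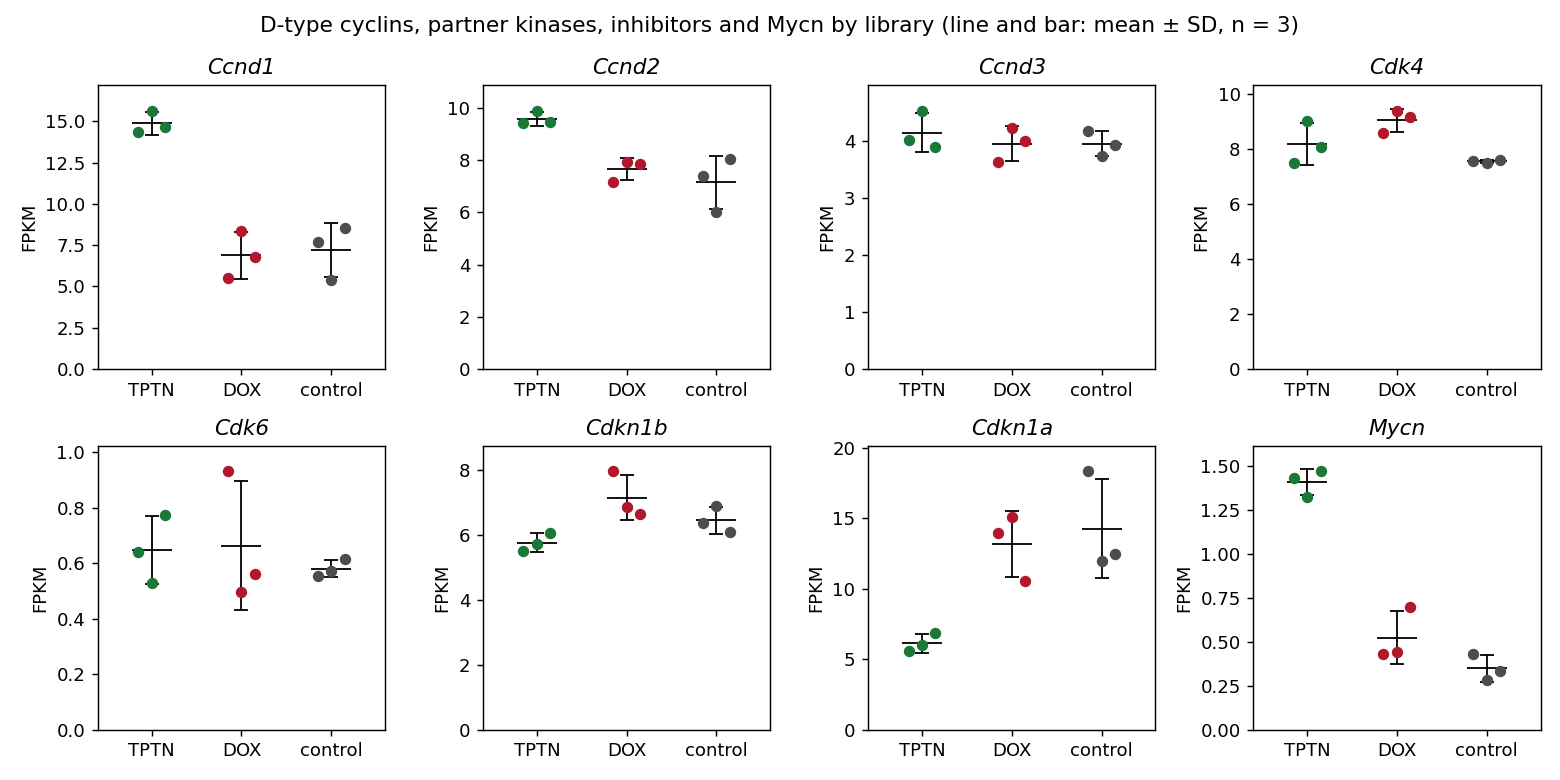
FPKM in each library (points) with mean and SD (n = 3) for 6 members (3 D-type cyclins, their 2 kinases and the inhibitor Cdkn1b) and for Cdkn1a and Mycn, which are not members, in TPTN, DOX and control. The 3 TPTN points of Ccnd1 (14.3 to 15.6 FPKM) and Mycn lie above, and those of Cdkn1a below, all points of the other groups.

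The 3 inhibitor members were not called. Cdkn1b, which encodes p27 and holds cyclin-dependent kinases inactive in resting cells, was at 5.51, 5.71 and 6.08 FPKM in TPTN, against 7.96, 6.86 and 6.65 in DOX and 6.37, 6.90 and 6.09 in control. Its TPTN libraries were below all others, though the highest of them lay just under the lowest control library. The log2 change was -0.27 against DOX (SE 0.08, unadjusted p = 0.00700, adjusted p = 0.0954) and -0.14 against control (adjusted p = 0.512). The p18 gene Cdkn2c was the lowest of the inhibitors, at 2.00, 2.44 and 2.56 FPKM in TPTN, 2.99, 2.86 and 2.18 in DOX and 2.27, 2.27 and 2.20 in control. Its groups overlapped, as did those of Cdkn1c, the imprinted p57 gene, at 5.01 to 7.09 FPKM.

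Outside the 42 members the p21 gene Cdkn1a, a target of p53 that inhibits the same kinases, was at 5.57, 5.98 and 6.89 FPKM in TPTN, against 13.9, 15.1 and 10.5 in DOX and 18.3, 12.0 and 12.5 in control. It fell in TPTN by 0.98 on the log2 scale against DOX (SE 0.17, adjusted p = 0.0254). Ccnd1 over Cdkn1a was 2.58, 2.61 and 2.12 in TPTN, 0.394, 0.554 and 0.643 in DOX and 0.419, 0.449 and 0.686 in control. That ratio joins genes called in opposite directions, so its separation restates those calls. The Cdkn1a call against DOX was lost without TPTN replicate 1, 2 or 3 (adjusted p = 0.0917, 0.0677 and 0.0644) or DOX replicate 2 (0.0746) or when low genes were kept in the fit (0.150).

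The pocket protein gene Rb1 was at 2.37, 2.67 and 2.51 FPKM in TPTN, 2.93, 2.28 and 2.34 in DOX and 2.65, 2.56 and 2.94 in control, and its groups overlapped. The factors that act downstream of it were too low to test. E2f1, which activates S-phase genes, had 0.218, 0.247 and 0.0680 FPKM in TPTN, 0.139, 0.193 and 0.0820 in DOX and 0.178, 0.0923 and 0.149 in control. Foxm1, which activates mitotic genes, had 0.155, 0.247 and 0.143 FPKM in TPTN, 0.0905, 0.151 and 0.0455 in DOX and 0.124, 0.0818 and 0.0864 in control. E2f1 overlapped in all comparisons, while Foxm1 in TPTN was above every control library and overlapped DOX. Rbl1, the p107 pocket gene, was 0.305 to 0.577 FPKM over the 9 libraries, with TPTN above all DOX libraries.

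The 6 subunits of the MCM helicase, which unwinds DNA at the fork, come together in equal amounts in the complex, and 1 of the 6 passed the test. Mcm3 was at 1.16, 1.27 and 1.34 FPKM in TPTN, against 0.891, 0.778 and 0.785 in DOX and 0.820, 0.635 and 0.640 in control. All TPTN libraries lay above the others. The log2 change was 0.41 against control (SE 0.08, adjusted p = 0.0347, ratio of means 1.81) and 0.31 against DOX (SE 0.08, adjusted p = 0.0506, ratio 1.54), just outside the threshold. The call against control held in 2 of 9 fits that left out a library, those without DOX replicate 1 (adjusted p = 0.0388) or control replicate 1 (0.0318). It was lost without TPTN replicate 1, 2 or 3 (0.0789, 0.119 and 0.152), DOX replicate 2 or 3 (0.0583 and 0.0551) and control replicate 2 or 3 (0.141 and 0.122). It was also lost with only TPTN and control fitted (0.0648) or with no filter on low values (0.174). Mcm3 (ENSMUSG00000041859) lies on chromosome 1 from 20802968 to 20820312 on the minus strand.

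Mcm2, Mcm5 and Mcm6 also had their TPTN libraries above all others without passing the test. Mcm2 was at 0.712, 0.770 and 0.735 FPKM in TPTN, 0.554, 0.570 and 0.466 in DOX and 0.415, 0.553 and 0.560 in control (adjusted p = 0.185 against DOX and 0.257 against control). Mcm6 was at 1.23, 1.51 and 1.32 FPKM in TPTN, 0.827, 1.03 and 1.10 in DOX and 1.04, 0.817 and 0.892 in control (adjusted p = 0.135 and 0.159 in the same comparisons). Mcm5 was the only subunit whose 3 groups were all separate. It had 0.584, 1.02 and 0.767 FPKM in TPTN, 0.487, 0.543 and 0.58 in DOX and 0.262, 0.316 and 0.341 in control. The lowest TPTN library of Mcm5 was close to the highest DOX library, and both groups lay above control, by 0.45 for TPTN (SE 0.09, adjusted p = 0.0577) and 0.23 for DOX (SE 0.09, unadjusted p = 0.0288, adjusted p = 0.214) on the log2 scale. The added 1 in log2(FPKM + 1) shrinks the changes of a gene this low. The ratio of means of Mcm5 was 2.58 for TPTN over control and 1.75 for DOX over control. Mcm5 passed the filter on low values only through TPTN, since its other 6 libraries averaged 0.421 FPKM.

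For Mcm4 and Mcm7 the TPTN libraries overlapped DOX. Mcm4 was at 1.74, 1.65 and 1.58 FPKM in TPTN, 1.60, 1.38 and 1.03 in DOX and 1.19, 1.5 and 1.43 in control, with TPTN above every control library. Mcm7 was at 1.43, 1.56 and 1.15 FPKM in TPTN, 2.05, 1.43 and 1.68 in DOX and 1.21, 1.53 and 1.48 in control, and its log2 change in TPTN against DOX was -0.19 (SE 0.10, adjusted p = 0.331). Mcm7 overlaps Cops6 and Ap4m1 on the opposite strand and holds 3 microRNA genes on its own strand, whereas Mcm2, Mcm3, Mcm4, Mcm5 and Mcm6 overlap no other annotated gene. Mcm3 over Mcm7 was 0.814, 0.815 and 1.17 in TPTN, against 0.434, 0.542 and 0.467 in DOX and 0.679, 0.415 and 0.433 in control. This ratio contains Mcm3, which was itself called against control, so it restates values already given and is no independent support. The clamp gene Pcna, which also serves DNA repair, was several times more abundant, at 9.92, 10.8 and 10.2 FPKM in TPTN, 11.5, 11.2 and 10.3 in DOX and 10.4, 10.2 and 9.41 in control, and its groups overlapped.

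**Figure D3:**
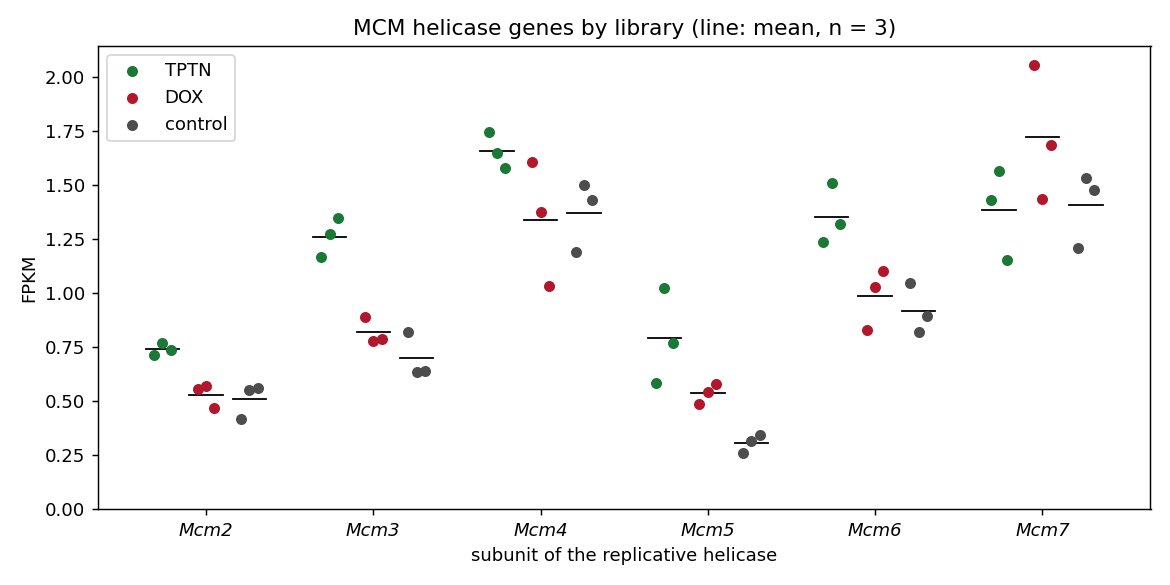
FPKM of Mcm2 to Mcm7 in each library (points) with the group mean (line, n = 3) in TPTN, DOX and control. TPTN points lie above all DOX and control points for Mcm2, Mcm3, Mcm5 and Mcm6, and overlap DOX for Mcm4 and Mcm7.

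E2F factors bind MCM gene promoters, so the 250 bases before the start site are shown for Mcm3, the subunit that passed the test, and for Mcm5 and Mcm6. That of Mki67, the proliferation marker gene, is shown with them. Capitals mark an E2F match (TTTCCCGC, TTTCGCGC, TTTGCCGC or TTTGGCGC on either strand) or a CHR match (TTTGAA on either strand, the element found in promoters of mitotic genes). The sequences are from RefSeq (GRCm38.p6) and are written 5′ to 3′ on the strand of the gene.
Mcm3 (chr1:20820313-20820562, - strand): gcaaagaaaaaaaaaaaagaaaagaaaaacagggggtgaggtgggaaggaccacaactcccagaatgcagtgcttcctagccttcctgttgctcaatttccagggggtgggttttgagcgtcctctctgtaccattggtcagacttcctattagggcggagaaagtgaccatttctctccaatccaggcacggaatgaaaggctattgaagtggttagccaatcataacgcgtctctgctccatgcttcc
Mcm5 (chr8:75109259-75109508, + strand): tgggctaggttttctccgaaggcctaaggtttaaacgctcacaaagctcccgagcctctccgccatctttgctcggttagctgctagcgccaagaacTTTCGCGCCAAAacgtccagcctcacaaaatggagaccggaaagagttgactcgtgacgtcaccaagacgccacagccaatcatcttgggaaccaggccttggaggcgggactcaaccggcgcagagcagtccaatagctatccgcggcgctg
Mcm6 (chr1:128359706-128359955, - strand): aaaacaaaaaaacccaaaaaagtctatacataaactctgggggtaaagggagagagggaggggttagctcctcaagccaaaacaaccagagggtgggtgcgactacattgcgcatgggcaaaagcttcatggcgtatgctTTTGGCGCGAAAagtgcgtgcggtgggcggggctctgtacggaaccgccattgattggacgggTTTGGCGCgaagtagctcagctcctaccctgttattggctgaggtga
Mki67 (chr7:135716380-135716629, - strand): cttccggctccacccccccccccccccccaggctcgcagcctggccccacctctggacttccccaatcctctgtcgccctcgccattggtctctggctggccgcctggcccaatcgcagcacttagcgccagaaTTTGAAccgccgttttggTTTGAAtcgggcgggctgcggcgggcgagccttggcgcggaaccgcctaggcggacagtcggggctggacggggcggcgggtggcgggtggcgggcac

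In Mcm5 an E2F match began 153 bases before the start site and overlapped another on the opposite strand. Mcm6 had overlapping matches beginning 110 and 106 bases before the start and another at 47. Mcm3 had neither E2F nor CHR letters in this window. Mki67 had CHR matches beginning 116 and 98 bases before its start. Promoters of 33 of the 42 members were in the table used. An E2F match was found in 6 of them (18.2%), namely Mcm5, Mcm6, Mcm7, Cdk1, Cdk2 and Rbl1, against 2.16% of 27025 genes. A CHR match was found in 7 (21.2%), against 18.3% of all genes, and a CCAAT box (CCAAT on either strand) in 24 (72.7%), against 37.5%. A match describes letters only. Among the subunits whose TPTN libraries were above all others, Mcm5 and Mcm6 had an E2F match and Mcm2 and Mcm3 had none. Mcm7, whose libraries overlapped, had a match in a window from 138171834 to 138172133. That window lies inside the Mcm7 span used for positions here, which ends at 138172422, and a further Mcm7 window had no match. No Mcm4 promoter was available, so the subunits are not compared like for like.

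Of the 4 enzymes of nucleotide supply, 2 were tested, Rrm1 and Rrm2, and neither was called. Tyms and Tk1 averaged less than 0.5 FPKM and were not tested. Rrm1, the large subunit of ribonucleotide reductase, was at 1.18, 1.20 and 1.12 FPKM in TPTN, 1.20, 1.08 and 0.932 in DOX and 0.957, 1.09 and 0.928 in control. Its TPTN libraries were above control and overlapped DOX. Thymidylate synthase, Tyms, which makes the DNA base thymine's nucleotide, was at 0.237, 0.319 and 0.202 FPKM in TPTN, 0.265, 0.193 and 0.199 in DOX and 0.148, 0.117 and 0.136 in control, so that both TPTN and DOX lay above control. Rrm2, the S-phase subunit of the reductase, was at 0.403 to 0.775 FPKM and thymidine kinase Tk1 at 0.252 to 0.745 FPKM, and both overlapped in every comparison. Rrm2 was tested only through TPTN, with 0.486 FPKM in the other 6 libraries.

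The S and M phase cyclins and their kinase were too low to test. Cyclin A2 (Ccna2), needed from S phase into mitosis, had 0.363, 0.350 and 0.357 FPKM in TPTN, against 0.117, 0.30 and 0.0911 in DOX and 0.197, 0.0516 and 0.235 in control. Cdk1, the kinase that drives mitosis, had 0.108, 0.120 and 0.156 FPKM in TPTN, against 0.0507, 0.0739 and 0.0484 in DOX and 0.0722, 0.0491 and 0.0952 in control. For both genes all TPTN libraries were above the other 6. Cyclin B1 (Ccnb1) had 0.0382, 0.0468 and 0.0724 FPKM in TPTN, 0.0667, 0.0216 and 0.0219 in DOX and 0.0165, 0.00526 and 0.0421 in control, and overlapped throughout. Cyclin B2 (Ccnb2), at 0.0838 to 0.390 FPKM, also overlapped.

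Mki67, which encodes the nuclear protein Ki-67 used to mark dividing cells, was also separated. It had 0.377, 0.473 and 0.508 FPKM in TPTN, against 0.191, 0.156 and 0.0929 in DOX and 0.241, 0.107 and 0.219 in control. Every TPTN library was above the other 6, and the ratio of means was 3.09 against DOX and 2.39 against control. An added fit with no filter and a pseudocount of 0.1, chosen after seeing the data, gave Mki67 a log2 change of 1.18 against DOX (SE 0.26, adjusted p = 0.112 over 29237 genes) and 0.96 against control (adjusted p = 0.325). With 3 libraries against 3 an exact permutation test cannot go below 0.1. The gene (ENSMUSG00000031004) lies on chromosome 7 from 135689784 to 135716361 on the minus strand and overlaps Gm45240 on the opposite strand.

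Of the mitotic genes only Cenpf, a large kinetochore protein, was tested, and it passed the filter through DOX, its other 6 libraries averaging 0.483 FPKM. It had 0.477, 0.613 and 0.698 FPKM in TPTN, 0.774, 0.693 and 0.737 in DOX and 0.359, 0.294 and 0.457 in control. DOX and TPTN libraries overlapped and both were above control, with ratios of means of 1.99 for DOX and 1.61 for TPTN. The log2 change was 0.34 in DOX against control (SE 0.08, unadjusted p = 0.00156, adjusted p = 0.0534) and 0.22 in TPTN against control (unadjusted p = 0.0208, adjusted p = 0.274). Bub1, a spindle checkpoint kinase, had the lowest mean of the mitotic members over all libraries (0.0426 FPKM), close to that of the kinetochore motor Cenpe (0.0433), which was the lower in TPTN (0.0393 against 0.0768 FPKM). Bub1 had 0.0990, 0.0438 and 0.0876 FPKM in TPTN and 0.0294 and 0.0923 in DOX, where it was listed at 0 in the other library, and was listed at 0 in 2 control libraries with 0.0312 FPKM in the third. The mitotic kinase Plk1, singled out after its values were seen, had 0.364, 0.227 and 0.176 FPKM in TPTN, against 0.172, 0.0725 and 0.0545 in DOX and 0.121, 0.0147 and 0.155 in control, a TPTN group that did not overlap the others.

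Taking the 21 members below 0.5 FPKM together, 5 had all TPTN libraries above all DOX libraries (Rbl1, Ccna2, Cdk1, Mki67 and Plk1) and 0 had them below. Of 6979 genes in the same range of mean FPKM, 6.26% were separated upward and 5.9% downward. Against control, 9 members were separated upward (Foxm1, Tyms, Ccna2, Cdk1, Mki67, Bub1, Plk1, Kif11 and Ube2c) and 0 downward, beside 7.36% and 5.34% of those genes. DOX was separated from control in 1 member, Tyms, upward and in 0 downward, beside 6.78% and 4.79%. The mean in TPTN was higher than in DOX for 17 of the 21 and higher than in control for 19, where 48.6% and 54.4% of the 6979 genes were. DOX means were above control for 13 of 21, beside 54.4%. These genes share cells and libraries and are not independent. Without DOX replicate 1, 7 members were separated upward from DOX, beside 12.7% of the low genes.

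**Figure D4:**
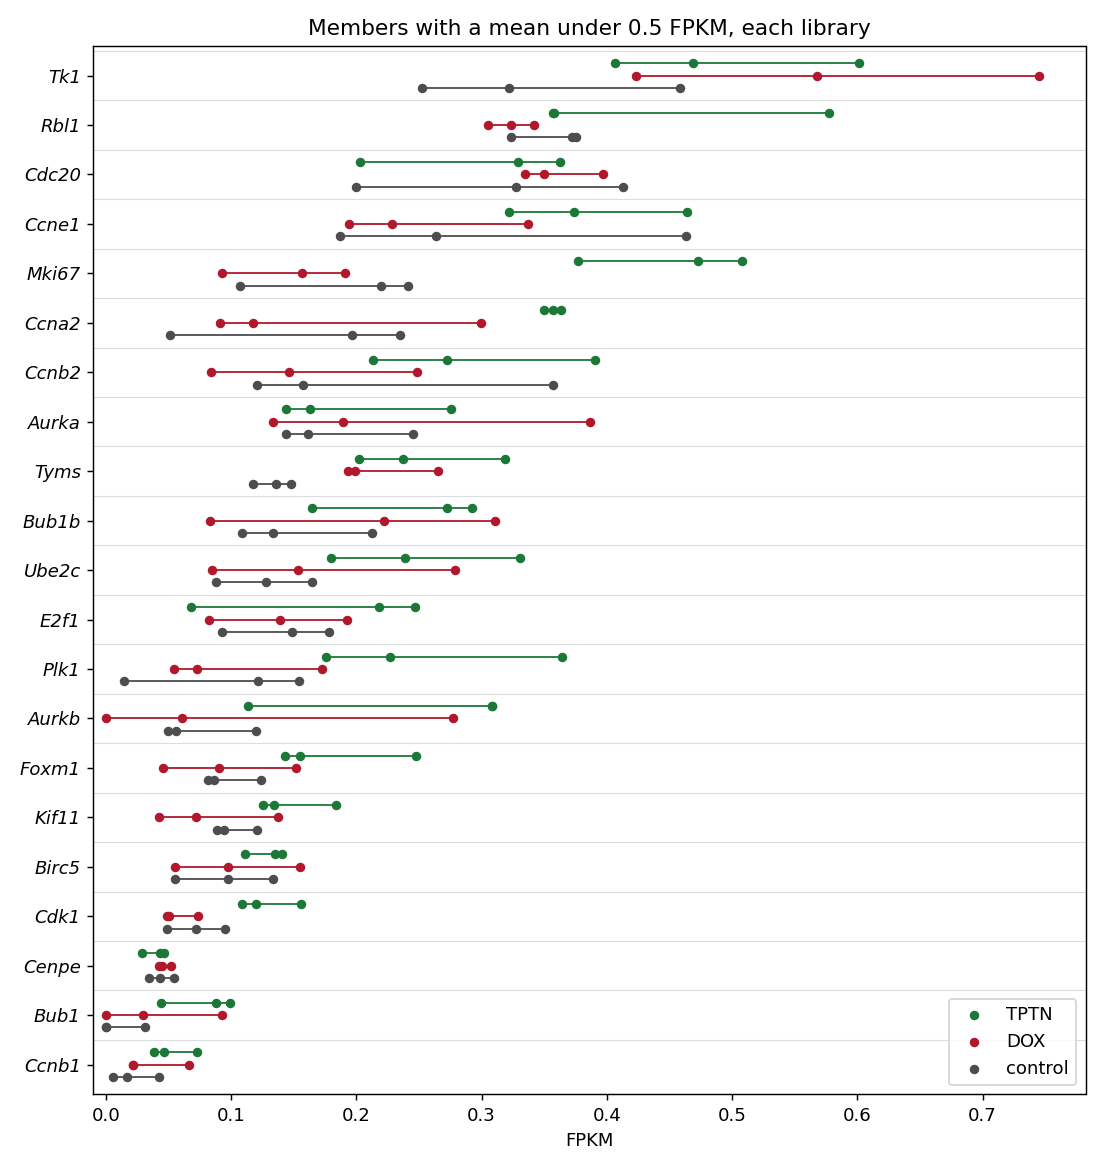
FPKM in each library for the 21 members with a mean below 0.5 FPKM, TPTN above DOX above control within each gene. TPTN points lie right of all others for Mki67, Ccna2, Cdk1 and Plk1, while Cdc20, Cenpe and Tk1 overlap between groups.

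The DOX libraries differed among themselves in this set. Summed over the 16 S and M phase and mitotic members, FPKM was 3.77, 3.67 and 3.83 in TPTN, against 2.59, 3.65 and 2.05 in DOX and 2.20, 2.11 and 2.37 in control. DOX replicate 2 thus came just under the lowest TPTN library, and the TPTN libraries were close to each other. DOX replicate 2 was the highest of the DOX libraries in 12 of the 16 genes, and DOX replicate 3 was the lowest in 11. The 3 kinase inhibitor members summed to 12.9, 14.4 and 14.1 FPKM in TPTN, 16.9, 14.7 and 15.2 in DOX and 15.7, 14.9 and 13.4 in control. TPTN was below DOX, narrowly at 14.4 against 14.7 FPKM, and control overlapped both. Only Cdkn1b had all TPTN libraries below all DOX libraries, while Cdkn1c and Cdkn2c overlapped. These sums are of FPKM as deposited, with no other scaling of the libraries.

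Markers of other cells in the heart were measured beside these genes. Endothelial markers summed to 181 to 216 FPKM in TPTN, 181 to 204 in DOX and 191 to 196 in control, with 1 of 8 (Kdr) called higher in TPTN in both comparisons. Fibroblast markers summed to 97.4 to 109 FPKM in TPTN, 87.7 to 123 in DOX and 90.5 to 92.2 in control, with 1 of 8 (Col3a1) called higher in TPTN in both comparisons. Col1a1, Col1a2 and Postn were not called but also had all TPTN libraries above all others. Dcn, the most abundant of the 8 (41.1 to 71.6 FPKM), had them below all DOX libraries, and Pdgfra, Lum and Tcf21 overlapped DOX. Of all tested genes 10.4% were above and 14.1% below DOX in this way. Called higher in TPTN were 0.792% of all tested genes against DOX and 0.336% against control. Macrophage markers summed to 59.5 to 63.7 FPKM in TPTN, 51.6 to 69.2 in DOX and 57.6 to 68.0 in control, and none of 7 tested was called. Lymphocyte markers summed to 0.430 to 1.25 FPKM in TPTN, 0.302 to 1.08 in DOX and 0.408 to 0.489 in control, and none was high enough to test. Smooth muscle and pericyte markers summed to 164 to 201 FPKM in TPTN, 145 to 188 in DOX and 134 to 188 in control. Erythroid markers summed to 447 to 604 FPKM in TPTN, 331 to 971 in DOX and 396 to 945 in control. Neutrophil markers summed to 0.202 to 0.291 FPKM in TPTN, 1.04 to 4.33 in DOX and 4.26 to 11.4 in control, with Ly6g and Camp listed at 0 in 8 of 9 libraries. Of 2 neutrophil markers tested S100a9 was called lower in TPTN than in control (log2 change -2.01, adjusted p = 0.0264), beside 0.384% of all tested genes. The part of these cells in the cell cycle values was not tested, and in whole tissue a change in the number of cells of a type and a change in RNA per cell cannot be told apart.

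Genes of the same pathways outside the 42 members gave 118 others, of which 51 were tested. In TPTN against DOX 1 rose, Mycn, and 2 fell, Cdkn1a and Tfdp2, beside 0.792% and 2.46% of all tested genes. Mycn, a growth-promoting transcription factor of the Myc family, was at 1.43, 1.32 and 1.47 FPKM in TPTN, against 0.428, 0.442 and 0.697 in DOX and 0.430, 0.281 and 0.333 in control. All TPTN libraries were above the others, with a log2 change of 0.67 against DOX (SE 0.09, adjusted p = 0.00850) and 0.84 against control (SE 0.09, adjusted p = 0.00383). Mycn passed the filter on low values only through TPTN, its other 6 libraries averaging 0.435 FPKM, so these tests are no independent support. With no filter the call against DOX was lost (adjusted p = 0.0906) and that against control was at 0.0491. Tfdp2, which encodes a partner of E2F factors, was at 3.53, 3.29 and 3.79 FPKM in TPTN, 5.78, 5.26 and 4.98 in DOX and 4.56, 6.29 and 4.96 in control, and fell by 0.48 on the log2 scale against DOX (SE 0.10, adjusted p = 0.0352). The Tfdp2 call held in 2 of the 9 fits that left out a library, with adjusted p up to 0.106 in the rest, and was lost with quantile scaling (0.0514), with the sum without mitochondrial genes as scale (0.0759) and with no filter (0.174). Against control 1 rose, Mycn, and 1 fell, Cdkn1a, beside 0.336% and 0.384% of all tested genes. Cdkn1a fell by 1.08 on the log2 scale (adjusted p = 0.0285). That call was lost when any 1 TPTN library, control replicate 2 or control replicate 3 was left out (adjusted p up to 0.106). It was also lost with no filter (0.179). Between DOX and control none of the 51 was called by limma, beside 2.23% of all tested genes called higher and 0.4% lower. At an unadjusted p under 0.05, 8 were higher and 0 lower, close to the 14.6% and 3.47% of all tested genes. At that threshold 4 of the 51 were higher and 10 lower in TPTN than in DOX, beside 7.78% and 12.9% of all tested genes. In TPTN against control 10 were higher and 5 lower, beside 9.02% and 4.12%.

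By list, 32 further genes of G1 control had a median log2 change of 0.02 in TPTN against DOX over 20 tested. The 43 further replication genes had -0.05 over 24 tested, with none called. In the G1 list all TPTN libraries were above all DOX libraries in 4 genes and below in 7, and against control in 4 and 4. In the replication list the numbers were 6 above and 4 below DOX, and 9 above and 3 below control. The 43 further mitotic genes were mostly too low to test, with 7 tested and none called. In 10 of the 43 all TPTN libraries were above all DOX libraries and in 0 below, and against control in 18 above and 0 below. Of the 6979 low genes 6.26% were above DOX and 5.9% below, and 7.36% above control and 5.34% below. Among tested genes the shares were 10.4% and 14.1% against DOX and 15.2% and 6.03% against control. An example is Top2a, a DNA topoisomerase of dividing cells and a target of doxorubicin, chosen after its values were seen. It had 0.250, 0.313 and 0.294 FPKM in TPTN, against 0.0754, 0.194 and 0.0753 in DOX and 0.113, 0.113 and 0.121 in control.

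The authors' deposited table, whose header does not name the groups compared, marks 13 of the 42 members yes and gives 6 of them a q-value under 0.05. In the authors' deposited table these are Ccnd1 (q = 2.23e-12), Mki67 (3.1e-05), Cenpf (8.4e-05), Mcm5 (0.000335), Mcm3 (0.0038) and Ccnd2 (0.00915). Of all 29237 genes the authors' deposited table marks 2892 yes and gives 1047 a q-value under 0.05.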

How the data were processed

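The deposited table holds FPKM values of 29237 genes in 9 heart libraries, made by the authors. Per the submitters' processing notes, cutadapt 1.9, HISAT2 2.0.4, StringTie 1.3.4d, DESeq2, edgeR and GRCm38 were used, with no role or order given. The p-value and q-value columns are the authors' deposited values, for groups that the header does not name. Per the labels' protocols, polyadenylated RNA was sequenced as paired reads from strand-marked (dUTP) libraries. FPKM depends on the library total, so a few abundant transcripts can move all other values. Mitochondrial genes and their copies made up 66.7 to 67.5% of the summed FPKM in TPTN, 62.6 to 64.5% in DOX and 69.3 to 70.6% in control. These ranges did not overlap. Values per library, and statements on whether they overlap between groups, are for FPKM not corrected for this share.

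The 12500 genes that averaged 0.5 FPKM or more entered the test, on the log2(FPKM + 1) scale, in limma 3.58.1 (R 4.3.3), with 1 mean per group, a variance trend, robust empirical Bayes moderation and 6 residual degrees of freedom. Adjusted p-values are Benjamini-Hochberg over all genes tested, in either direction, with 0.05 as threshold. The pseudocount understates changes of low genes. Read counts were not used here. The script was tested on simulated data. Positions are from GENCODE M21, in which 29154 gene identifiers matched. Promoters are from RefSeq, and members missing from that table are Cdkn1c, Rb1, Ccnd2, Ccna2, Aurkb, Ccnd1, Foxm1, Mcm4 and Ccne2.

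Members and lists were chosen with earlier results of these data known. Values in every library are given for members past the threshold or with an unadjusted p under 0.05, for the highest and lowest member of each role, and for Cdk1, Ccnb1, Ccna2, Mki67, Pcna, Mcm2 to Mcm7 and E2f1. Of other cell cycle genes, up to 4 called genes per list are named, and Cdkn1a always. At the edge of the filter, Cdc20, Rbl1 and Tk1 had means of 0.324, 0.370 and 0.472 FPKM outside it, and Ccne2, Rrm2 and Mcm5 had 0.516, 0.527 and 0.545 FPKM inside it. Alternatives changed the pseudocount, filter, scaling, samples fitted and replicate block.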

Additional observations from a re-analysis of the deposited data

How the results depend on the processing

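No member changed direction where it was called, in any setting tried. Members called in TPTN against DOX numbered 1, and 2 with median-ratio or quantile scaling (Ccnd1 and Mcm3), 4 with each library scaled to its sum without mitochondrial genes and their copies (Ccnd1, Ccnd2, Mcm3 and Mcm6) and 0 with no filter, with a pseudocount of 1 or 0.1. Against control they numbered 2, and 1 with only the groups compared, a minimum mean of 1 FPKM or a minimum log2 change of 0.58, and 0 with no filter at either pseudocount. Leaving out a library gave 0 to 1 against DOX, 0 to 2 against control and 0 to 0 for DOX against control. Other cell cycle genes in TPTN against DOX numbered 3, and 5 with median ratios and 0 with no filter at either pseudocount (1 to 3 with a library left out). Against control they numbered 2, and 1 with no filter at either pseudocount or a minimum mean of 1 FPKM (1 to 3). In DOX against control they numbered 0, and 1 with a pseudocount of 0.1 or 0.01 or a minimum mean of 1 FPKM (0 to 0). All genes called in DOX against control numbered 329, and 176 with the 2 groups alone, 2 with no filter, 173 with median ratios, 143 with quantile scaling, 1 with no filter and a pseudocount of 0.1 and 55 with the minimum change (2 to 314). In TPTN against DOX they numbered 407, and 2 with no filter, 671 with the sum without mitochondrial genes, 31 with no filter and the lower pseudocount and 74 with the minimum change (45 to 468). In TPTN against control they numbered 90, and 6, 23 and 56 under no filter, no filter with the lower pseudocount and the minimum change (21 to 148). Without the filter many more low genes were tested, and the variance trend was refitted on them as well. The cause of these shifts, with or without the filter, was not tested.

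Scaling moved the split of calls. In DOX against control 279 genes were higher and 50 lower, but 110 and 63 with median ratios, 76 and 67 with quantile scaling and 61 and 209 with the sum without mitochondrial genes. In TPTN against DOX 99 were higher and 308 lower, but 149 and 280, 173 and 163, and 542 and 129 in the same order. In TPTN against control 42 were higher and 48 lower, and 38 and 65 with median ratios. The sum without mitochondrial genes moved the median log2 change of the members in DOX against control to -0.03, with 8 of 21 above 0 in place of 16.

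Same-numbered libraries did not deviate together (r from -0.261 to 0.023), so the numbers were not taken as pairs. With a replicate block 1 member was called in TPTN against DOX and 0 against control (adjusted p = 0.0903 for Ccnd1 and Mcm3). The block also ended the calls on Cdkn1a (0.0531 against DOX and 0.0681 against control) and Tfdp2 (0.0713), so that 1 other cell cycle gene was called in each of these comparisons. All genes called numbered 170 in DOX against control and 159 in TPTN against DOX. The depth behind the 21 members below 0.5 FPKM is unknown.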
